A study of Homo sapiens with 20 samples.

Results

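RUNX1 binding was examined inside the bodies of protein-coding genes in the human monocytic leukemia line THP-1 by chromatin immunoprecipitation with sequencing (ChIP-seq). A peak of the merged RUNX1 peak set counted as intragenic when its midpoint lay within the span of a RefSeq protein-coding gene and no base of it lay within 1 kb of either end of any protein-coding gene. This gave 10490 intragenic peaks, 39.4% of the 26642 peaks. The other peaks were 6494 peaks within 1 kb of a gene end and 9658 intergenic peaks. Cells were given doxycycline to switch on either a scramble shRNA (control) or an shRNA that lowers PU.1 (knockdown). Each group had 6 RUNX1 libraries from separate immunoprecipitations of THP-1 cells, made in 2 experimental rounds that the labels call batches. In batch 1 there were 3 control libraries beside 2 of the knockdown, in batch 2 there were 3 beside 4. Both groups derive from the THP-1 line, so p-values measure the spread between immunoprecipitations of these cells. The study labels the scramble cells and the PU.1 shRNA cells as separate THP-1 derivatives. In every change given below, a difference between these derivatives cannot be told apart from the knockdown. The assay does not measure PU.1 itself, so the knockdown was not checked here, and the 8 IgG libraries of the series were not analysed here.

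RUNX1 is a transcription factor that binds DNA through its Runt domain, together with its partner CBFB, at sites built around TGTGGT. PU.1 is an ETS family factor that binds purine-rich sites such as GAGGAAGT and often occupies the same enhancers as RUNX1 in monocytes and their precursors. Much of the DNA inside a gene lies in introns, where enhancers of the gene itself or of its neighbours and the starts of shorter transcripts can be found. A peak inside a gene therefore need not act on that gene, and the gene names below give positions.

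Some intragenic peaks covered the start of an alternative transcript of the host gene or of an RNA gene within it, and their sequence could be read from the RefSeq table of start windows, which run from 250 bases before to 50 bases after a start (GRCh38.p14). For peaks that hold a whole window, the 3 gained and the 3 lost peaks with the smallest adjusted p are shown, 5′ to 3′ on the strand of the transcript, with the 6-letter RUNX core TGTGGT or its reverse complement ACCACA and the 8-letter ETS sequence GAGGAAGT or its reverse complement ACTTCCTC in capitals. The gained windows were those of SEPTIN9 (chr17:77475385-77475684, + strand), SMAD3 (chr15:67098429-67098728, + strand) and SH2B1 (chr16:28863593-28863892, + strand).
SEPTIN9: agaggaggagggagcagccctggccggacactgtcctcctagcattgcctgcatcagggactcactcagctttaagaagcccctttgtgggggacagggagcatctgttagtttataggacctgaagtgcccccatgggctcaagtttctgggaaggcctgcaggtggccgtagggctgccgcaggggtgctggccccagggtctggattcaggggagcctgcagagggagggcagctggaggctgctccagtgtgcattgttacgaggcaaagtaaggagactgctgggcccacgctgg
SMAD3: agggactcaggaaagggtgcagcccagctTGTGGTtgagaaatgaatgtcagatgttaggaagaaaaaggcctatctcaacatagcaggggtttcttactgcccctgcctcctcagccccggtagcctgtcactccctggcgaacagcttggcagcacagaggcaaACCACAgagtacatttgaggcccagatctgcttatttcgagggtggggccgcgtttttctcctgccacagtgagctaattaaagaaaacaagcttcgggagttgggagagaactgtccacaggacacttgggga
SH2B1: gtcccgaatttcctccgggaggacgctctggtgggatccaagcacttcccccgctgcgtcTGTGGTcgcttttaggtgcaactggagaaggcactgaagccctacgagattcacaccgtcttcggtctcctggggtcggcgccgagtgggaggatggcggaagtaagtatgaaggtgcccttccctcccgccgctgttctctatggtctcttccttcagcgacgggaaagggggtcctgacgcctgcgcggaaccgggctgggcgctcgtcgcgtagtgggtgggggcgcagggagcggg
The lost windows were those of CD36 (chr7:80638266-80638565, + strand), the intronic RNA gene ITPKB-IT1 (chr1:226675019-226675318, - strand) and SLC4A4 (chr4:71338770-71339069, + strand).
CD36: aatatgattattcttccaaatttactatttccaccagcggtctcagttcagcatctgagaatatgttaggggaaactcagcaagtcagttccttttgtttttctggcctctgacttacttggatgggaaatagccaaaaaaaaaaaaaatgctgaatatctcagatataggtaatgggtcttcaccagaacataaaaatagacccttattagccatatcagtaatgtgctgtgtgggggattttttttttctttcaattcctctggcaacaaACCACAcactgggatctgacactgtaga
ITPKB-IT1: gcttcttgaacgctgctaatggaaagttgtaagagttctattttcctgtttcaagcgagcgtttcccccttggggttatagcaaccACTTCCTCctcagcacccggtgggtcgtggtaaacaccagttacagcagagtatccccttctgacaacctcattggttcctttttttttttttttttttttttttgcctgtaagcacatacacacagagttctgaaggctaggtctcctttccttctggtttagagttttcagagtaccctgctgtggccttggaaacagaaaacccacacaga
SLC4A4: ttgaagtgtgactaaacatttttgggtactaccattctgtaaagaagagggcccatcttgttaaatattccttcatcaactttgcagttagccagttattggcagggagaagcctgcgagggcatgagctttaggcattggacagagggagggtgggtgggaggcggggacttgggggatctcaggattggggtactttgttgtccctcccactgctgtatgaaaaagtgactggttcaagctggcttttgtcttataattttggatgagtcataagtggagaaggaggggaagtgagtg

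Of these 6 windows, SMAD3 held 2 RUNX cores, SH2B1 and CD36 held 1 each, and ITPKB-IT1 held 1 ETS sequence. SMAD3 encodes a signal transducer of TGF-beta receptors. Its peak had normalised counts (reads divided by the library's size factor) of 37.9 to 58.5 (median 44.8) in control libraries and 76.4 to 105 (median 90.1) in knockdown libraries, a log2 fold change of 1.03 ± 0.14 (SE; DESeq2 adjusted p = 3.0e-11). In SEPTIN9, which encodes a cytoskeletal GTP-binding protein, the peak had 33.7 to 59.6 (median 41.2) in control and 79.2 to 112 (median 104) in knockdown libraries. SH2B1 encodes an adaptor of receptor tyrosine kinases, and its peak went from a median of 107 to a median of 175. At each of these 3 peaks every knockdown library lay above every control library. CD36 encodes a scavenger receptor of monocytes and macrophages, and the peak at its internal start had 52.0 to 71.5 (median 68.7) in control and 11.0 to 31.7 (median 22.6) in knockdown libraries (log2 fold change -1.53 ± 0.19; DESeq2 adjusted p = 5.4e-14). At ITPKB-IT1 the peak fell from a median of 52.1 to 18.5 and that at SLC4A4, which encodes a bicarbonate transporter, from 65.0 to 36.5, again with no overlap between the groups.

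The intragenic peaks had a median width of 812 bp (324 to 5276 bp) and a median mean normalised count of 27.9. They lay in genes with a median span of 111964 bp, at a median of 21208 bp from the nearest gene end, and the farthest lay 941459 bp from one. Of them, 217 lay in more than 1 gene. Between 226607 and 633109 reads per library fell into them, and the median peak had 17 to 30 reads in control and 24 to 44 reads in knockdown libraries. With these reads a peak's log2 fold change carried a standard error of 0.22 at the median, so small changes of single peaks were not detectable. Reads in all peaks numbered 630247 to 1199004 in control and 938745 to 1719840 in knockdown libraries. The libraries of 1 group differed by more than the counting noise, and no library was a duplicate of another.

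RUNX1 binding inside genes changed in both directions after PU.1 knockdown. DESeq2 with batch as a covariate called 2719 intragenic peaks gained (25.9%) and 2181 lost (20.8%) at an adjusted p under 0.05 and a fold change over 1.1, 46.7% in all against 42.0% of all 26642 peaks (gained 21.3%, lost 20.7%). Intergenic peaks had 26.4% gained and 21.8% lost, and peaks at gene ends 6.19% gained and 19.0% lost. The gained intragenic peaks had a median log2 fold change of 0.901 and the lost ones of -0.956. More than a 2-fold change was fitted for 1115 gained and 1016 lost peaks. In both batches every knockdown library exceeded every control library at 1795 intragenic peaks (17.1%) and lay below at 1565 (14.9%), against 14.4% and 13.9% of all peaks.

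Nearly all calls had the same direction in both batches. Batch 1 alone gave 692 gained and 811 lost intragenic peaks, 1503 of 10490. Over all peaks it gave 3194 of 26642, or 12% (5.38% gained, 6.61% lost). Batch 2 alone gave 1617 gained and 1467 lost, 3084 of 10490, and over all peaks 6886 of 26642, or 25.8% (12.8% gained, 13.1% lost). Of the 1298 peaks called in both, all moved in the same direction, 583 gained and 715 lost. Of the 1503 intragenic peaks called in batch 1, 1500 had the same sign in batch 2, whether called there or not. Among the 4900 calls of both batches together, 4894 had the same sign in each batch. Those calls come from a fit to both batches, which favours peaks that move the same way in each, so this count is no separate check. No peak passed the DESeq2 test of the difference between batches, with 288 intragenic peaks (2.75%) at an unadjusted p under 0.05. The number of calls in batch 1 rested on its few libraries: it was 118 without knockdown replicate 2 and 145 without knockdown replicate 1. edgeR's quasi-likelihood test called 5433 intragenic peaks, among them all 4900 calls in the same direction.

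Intragenic peaks took a larger share of the reads after knockdown. Among control libraries 32.8% of the reads in peaks were intragenic in replicate 1 and 35.1% to 36.0% in the others, and among knockdown libraries 35.8% to 38.1% were. The means were 35.2% ± 1.22 (SD, n = 6) and 37.0% ± 0.946 (SD, n = 6). The groups overlapped across batches but not within either batch. The log2 ratio of intragenic reads to reads in all other peaks was higher by 0.0981 in knockdown libraries (two-sided exact permutation test within batch, p = 0.00857, adjusted over 5 position ratios 0.0214), with 0.10 in batch 1 and 0.0968 in batch 2. Control replicate 1 stood apart, with 37.4% of its reads at gene ends against 31.3% to 32.3% in the other control libraries. Without it the difference was 0.0793 (exact permutation p = 0.00952). Against intergenic reads alone the intragenic share differed by 0.00707 (exact permutation p = 0.294), which did not exceed the spread between libraries, and against reads at gene ends by 0.194 (exact permutation p = 0.00857). Because peak calling used the same libraries, these ratios are not independent of how the peaks were chosen.

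**Figure D1:**
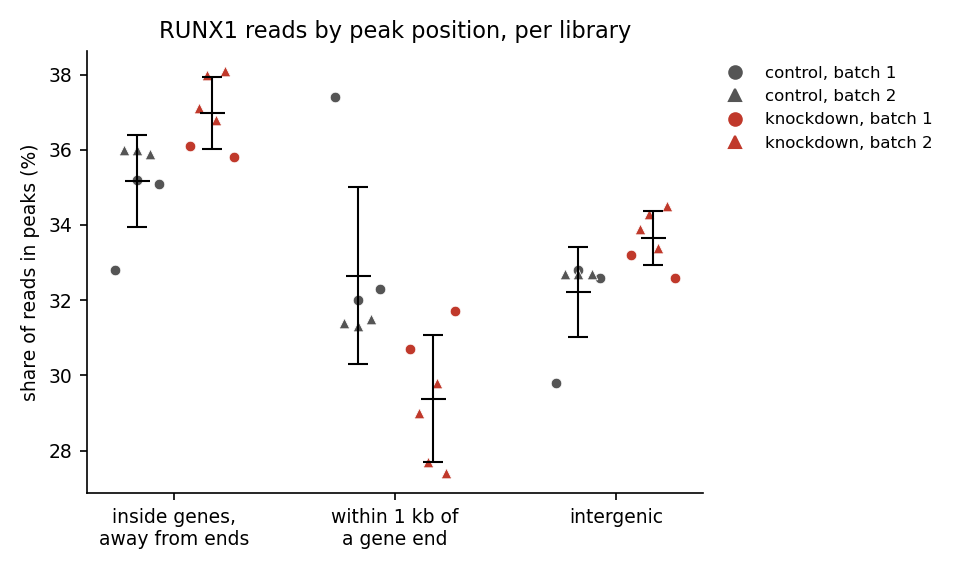
Share of the reads in peaks (%, vertical axis, not starting at 0) that fell into intragenic peaks, peaks within 1 kb of a gene end and intergenic peaks, for each of the 6 control and 6 knockdown libraries, with the mean and SD. The intragenic share was 35.2% in control and 37.0% in knockdown libraries, and control replicate 1 sits apart from the other control libraries in all 3 classes.

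Peaks over an internal start lost reads relative to other intragenic peaks after PU.1 knockdown. This comparison was chosen after the values were seen. The start windows could be assessed for 9907 intragenic peaks, and 636 of them overlapped a window. Of these 636, 58 were gained (9.12%) and 98 lost (15.4%), whereas of the 9271 without a window 2544 were gained (27.4%) and 1926 lost (20.8%). Windows of protein-coding transcripts (520 peaks) had 41 gained and 78 lost, and peaks with windows of long noncoding RNAs alone (116 peaks) had 17 gained and 20 lost. The median log2 fold change was -0.12 with a window and 0.10 without. The peaks with a window were wider (median 1234 bp against 795 bp) and stronger (median mean normalised count 42.4 against 26.9). Within each class of strength they had fewer gained peaks, from 19.2% against 31.4% at a mean count under 20 to 9.68% against 36.2% at a mean count over 100. They also had fewer lost peaks in each class, with 14.1% against 19.9% under 20 and 12.9% against 14.3% over 100. Peaks with a window were thus called less often in both directions. This was not particular to internal starts. Of the peaks at gene ends 25.2% were called (6.19% gained, 19.0% lost), against 24.5% of the intragenic peaks with a window.

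In reads, the log2 ratio of peaks with a start window to those without was -3.34 to -2.95 in control and -3.57 to -3.29 in knockdown libraries. The groups overlapped across batches and were separate within each. The ratio was lower by 0.160 on the log2 scale in knockdown libraries (-0.160; two-sided exact permutation within batch, p = 0.0171), with -0.160 in batch 1 and -0.161 in batch 2. The highest control value was that of replicate 1, and without it the difference was -0.121 (exact permutation p = 0.00952). Without knockdown replicate 1 it was -0.151 and no longer passed the threshold (exact permutation p = 0.0571).

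The same letters were counted in all start windows. Among the 57 windows wholly inside gained peaks, 54.4% held a RUNX core on either strand, against 29.7% of 111 windows in lost peaks, 15.6% of 571 windows in uncalled peaks and 13.1% of all 35116 windows of the table. The ETS sequence GAGGAAGT or ACTTCCTC was in 1 of the 57 windows of gained peaks (1.75%), in 12 of the 111 windows of lost peaks (10.8%), in 3.68% of those in uncalled peaks and in 2.59% of all windows. The SEPTIN9 and SLC4A4 windows shown above held none of these letters. Windows of 1 peak can overlap each other, so the counts are a description of letters and were not tested.

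The share of lost peaks was higher in longer genes. It was 17.4% in genes under 25 kb, 19.3% at 25 to 50 kb, 19.8% at 50 to 100 kb, 20.5% at 100 to 200 kb, 23.3% at 200 to 500 kb and 24.6% over 500 kb, while the gained share lay between 23.6% and 27.3%. The log2 ratio of reads in peaks of genes over 100 kb to reads in peaks of shorter genes was 0.06 to 0.12 in control and 0.05 to 0.10 in knockdown libraries. The groups overlapped across batches and also within batch 2, where knockdown replicate 4 had 0.101 and control replicate 4 had 0.0929. The ratio differed by -0.0334 (two-sided exact permutation within batch, p = 0.0200, adjusted 0.0350), with -0.0406 in batch 1 and -0.0283 in batch 2. Leaving out knockdown replicate 1, 3 or 5 or control replicate 5 or 6 moved its adjusted p above the threshold, to between 0.0525 and 0.0700. By class, genes over 500 kb had a difference of -0.0513 and genes of 200 to 500 kb of -0.0331, against 0.0203 for genes of 50 to 100 kb (each adjusted p = 0.0133, exact permutation). Gene length goes with distance to the gene end and with peak strength (median mean normalised count 28.8 under 25 kb, 24.2 over 500 kb), and was not tested apart from them. At 20 to 50 kb from an end the lost share was 24.1% in genes of 200 to 500 kb and 15.8% in longer ones. Over 100 kb from an end it was 21.5% and 27.5%.

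Long genes also held fewer peaks for their length. Of 10194 genes under 25 kb 9.20% held an intragenic peak, of 1957 genes of 100 to 200 kb 59.8% did, and of 315 genes over 500 kb 69.5% did. Per Mb of gene span there were 11.9 peaks in genes of 25 to 50 kb and 3.07 in genes over 500 kb. Gained peaks fell from 2.82 to 0.796 per Mb between these classes and lost peaks from 2.28 to 0.742. The rule leaves out the outer 1 kb of each gene, which takes a larger part of a short gene.

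Shares also differed with the distance to the nearest end of any gene. Peaks 10 to 20 kb from an end had 27.3% gained and 18.5% lost, and those over 100 kb away 24.5% and 24.1%. The log2 ratio of reads over 20 kb from an end to reads nearer by differed by -0.0287 between knockdown and control (exact permutation p = 0.0400, adjusted 0.0700), which did not pass after adjustment. It passed when peaks over a start window were left out (-0.0374, adjusted p = 0.0150, exact permutation), and also without control replicate 1 (-0.0341, adjusted p = 0.0417, exact permutation). With other libraries left out its adjusted p went up to 0.163 (exact permutation). Among the classes, reads 10 to 20 kb from an end were higher by 0.0354 (adjusted p = 0.0200), and those 50 to 100 kb and over 100 kb away were lower, with -0.0237 (adjusted p = 0.0400) and -0.0416 (adjusted p = 0.030, all by exact permutation).

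The 2 ends of a gene were not alike. The strand of the gene was known for 8455 intragenic peaks (80.6%). Within 5 kb of the start 20.7% of peaks were gained and at 5 to 10 kb 20.1%, whereas beyond 10 kb 26.4% to 27.8% were. At 1 to 5 kb from the other end 27.3% were gained and 17% lost. Reads 1 to 5 kb from the start fell by 0.0535 relative to the reads in all peaks of known strand (-0.0535, exact permutation p = 0.00857, adjusted 0.0129), and those 1 to 5 kb from the other end were higher by 0.0709 (exact permutation p = 0.00286, adjusted 0.00857). The log2 ratio of reads in peaks nearer the start to those nearer the other end was 0.31 to 0.34 in control and 0.28 to 0.30 in knockdown libraries, without overlap, a difference of -0.0360 (exact permutation p = 0.00286, the smallest the design allows after rounding). The place with the largest difference along the gene was 10 to 20% of its length from the start (-0.0682, exact permutation p = 0.00286, adjusted 0.010). Without peaks over a start window the gained shares were 22.9% at 1 to 5 kb and 21.7% at 5 to 10 kb from the start, and 27.4% to 28.9% farther away.

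**Figure D2:**
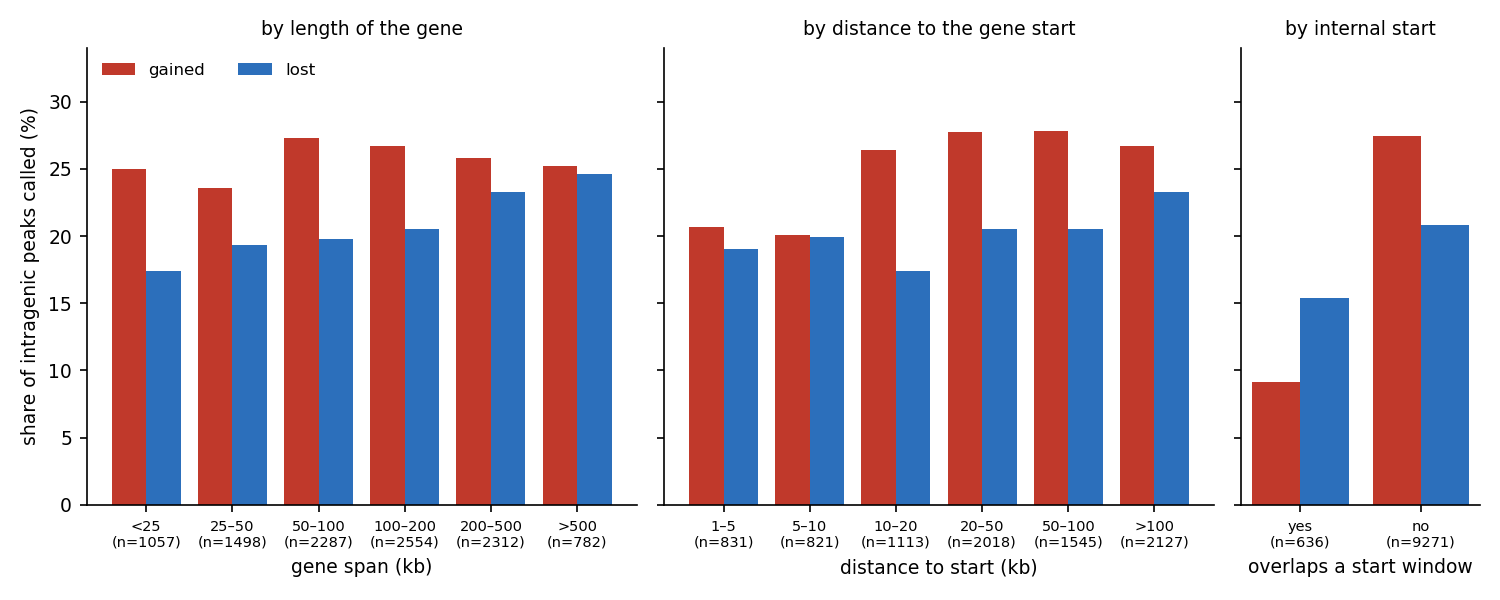
Share of intragenic peaks called gained or lost (%, bars from 0), by span of the gene (kb), by distance to the gene's start (kb) and by overlap with a start window, with the number of peaks under each pair of bars. Lost peaks go from 17.4% in the shortest genes to 24.6% in the longest, gained peaks are fewest within 10 kb of the start (20.1% and 20.7%), and 9.12% of peaks over a start window were gained against 27.4% of the others.

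**Figure D3:**
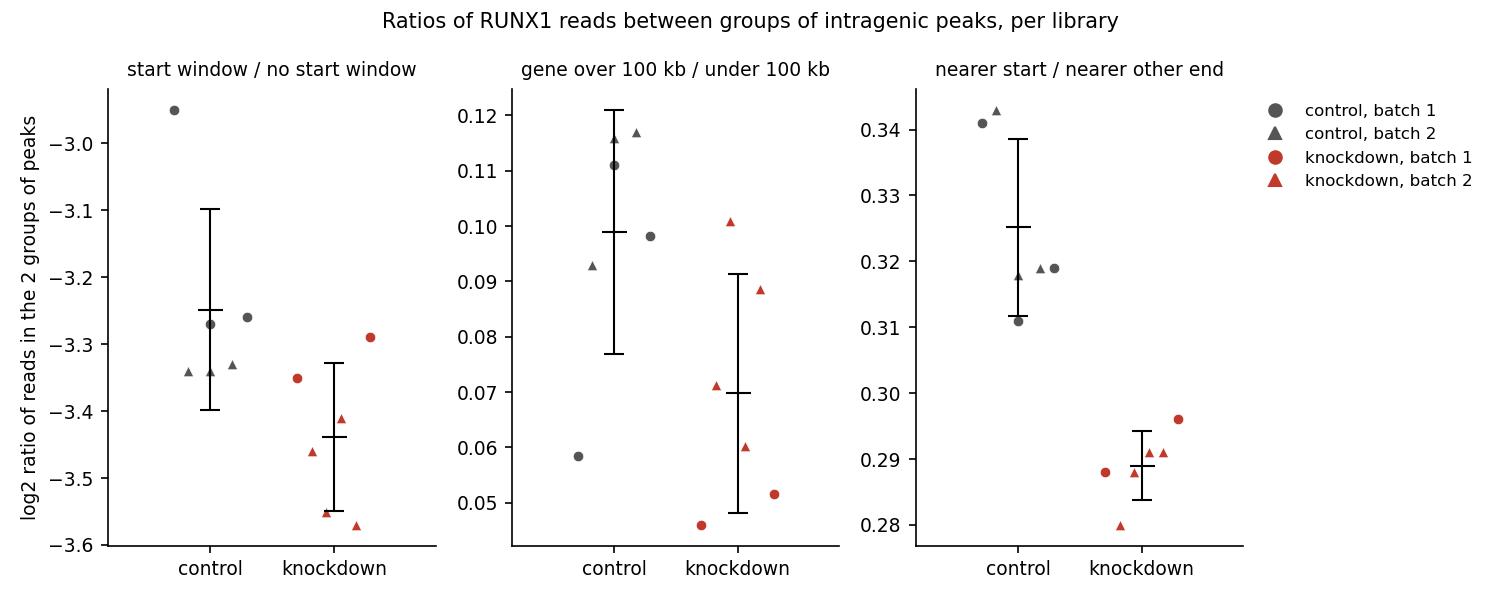
Log2 ratios of reads between groups of intragenic peaks in each library (vertical axes, not starting at 0), with mean and SD for 6 control and 6 knockdown libraries. The ratio of peaks nearer the start to those nearer the other end separates the groups (0.31 to 0.34 against 0.28 to 0.30). The start-window ratio overlaps across batches but not within either, and the gene length ratio overlaps across batches and within batch 2.

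The share of reads also differed with the strength of a peak. Reads in peaks with a mean normalised count under 20 were higher by 0.0842 relative to all intragenic reads (exact permutation p = 0.0343, adjusted 0.0429) and those over 100 by 0.0608 (exact permutation p = 0.0200, adjusted 0.0333), while those of 30 to 50 differed by -0.0490 (adjusted p = 0.00714). The first value was larger in batch 1, with 0.164 there against 0.0283 in batch 2, where the groups overlapped, and without control replicate 1 it was 0.0779 (exact permutation p = 0.0714). The second was larger in batch 2, with 0.0919 there against 0.0164 in batch 1, where the groups overlapped. At 30 to 50 the groups were apart, with -0.0450 in batch 1 and -0.0517 in batch 2. The strength classes were cut on the mean over the same libraries that were then compared, and peak calling used these libraries too. The p-values of the strength classes are therefore not independent of how peaks and classes were chosen. They cannot separate an effect of peak strength from that choice. Peaks with a mean normalised count under 20 had 30.8% gained and 19.8% lost, those between 30 and 50 had 22.7% and 21.7%, and the 494 peaks over 100 had 32.0% and 15.0%. Among intergenic peaks over 100 the shares were 30% and 18.3%, and among peaks at gene ends 6.97% and 20.6%. The chromosomes were uneven. Chromosomes 22 and 10 had 37.6% and 33.9% of their intragenic peaks gained and 16.8% and 14.3% lost, whereas chromosome 11 had 18.5% gained and 30.1% lost and chromosome 8 had 20.1% and 26.9%. When the median log2 fold change of all peaks in each 10 Mb window was subtracted, 2756 intragenic peaks were called gained and 2091 lost, of which 4465 were among the 4900 calls.

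Of 20033 protein-coding genes, 5485 held at least 1 intragenic peak, 3147 held exactly 1, and 44 held 10 or more. GSE1, whose product belongs to a histone deacetylase corepressor complex, had the most with 18 (chromosome 16, 85169512 to 85676200), 5 gained and 2 lost. FNDC3B, a membrane protein with fibronectin domains, IQSEC1, an exchange factor for ARF GTPases, and SYN3, a synapsin, had 17 each. HIVEP3, a zinc finger factor, had 16, and the histone demethylase family member JMJD1C and the forkhead factor FOXP1 had 15 each. GNG7, a G protein subunit, and SEPTIN9 had 14 each. By density, CYTH4 (15.2 peaks per 100 kb), DENND10 (14.8), PLEC (14.6), PARVG (14.1) and RARA (12.4) led among genes with at least 5 peaks.

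In most of these genes single peaks moved in opposite directions and the sum moved little. All intragenic peaks of GSE1 together had 1032 to 1273 normalised counts (median 1144) in control and 1056 to 1179 (median 1112) in knockdown libraries, a log2 fold change of -0.02 ± 0.04 (SE; DESeq2 on sums, adjusted p = 0.793), although its peaks ranged from -0.80 to 2.56. FNDC3B, HIVEP3, JMJD1C, FOXP1 and GNG7 had summed changes between -0.08 and 0.04, none past the threshold. After the median of its 10 Mb window was subtracted, JMJD1C had -0.14 (adjusted p = 0.0291), past the threshold in the other direction. The groups overlapped in each of these 6 genes. SYN3 was gained, from 815 to 959 (median 867) to 1096 to 1194 (median 1154), a log2 fold change of 0.38, or 0.18 after subtraction of the window median, as was SEPTIN9, from 473 to 503 (median 486) to 566 to 630.2 (median 595). IQSEC1 was gained by 0.17 (adjusted p = 0.00172), but its value was -0.00145 after the median of its 10 Mb window was subtracted.

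Among the densest genes CYTH4, a cytohesin that activates ARF GTPases, was gained by 0.49 ± 0.07 (SE) and PARVG, a parvin that links integrins to actin, by 0.47 ± 0.08. After subtraction of the window median these became 0.29 and 0.30. PARVG had sums of 157 to 205 in control and 233 to 255 in knockdown libraries. PLEC, which encodes the cytolinker plectin, had 9 peaks of which none was called, and its sum of -0.07 (adjusted p = 0.299) became 0.13 (adjusted p = 0.0407) after subtraction of the window median. DENND10 was gained by 0.20 (adjusted p = 0.011, 0.0548 without 1 control library), with -0.05 after subtraction of the window median, and the retinoic acid receptor gene RARA had -0.13 (adjusted p = 0.0915), which passed after the subtraction (-0.17, adjusted p = 0.0242).

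Summed per gene, 2744 of 5485 genes were called (50%), 1553 gained (28.3%) and 1191 lost (21.7%). No gene passed the DESeq2 test of a difference between batches, with 175 (3.19%) at an unadjusted p under 0.05. Of the 657 genes with at least 4 intragenic peaks, 189 (28.8%) had gained peaks only, 133 (20.2%) lost peaks only, 306 (46.6%) both, and 29 neither. Of the 306 genes with both, 158 had a sum that was not called.

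The largest sets of peaks that moved one way were gained in SYN3 (8 of 17, of which 2 also lie in the nested gene TIMP3), TNR (5 of 6), ZDHHC14 (5 of 6), MYLK (5 of 9), TNS3 (5 of 10) and LYPD6B (4 of 6). TNR encodes tenascin R, a matrix protein of the nervous system. Its summed counts were 129.9 to 166 (median 139.5) in control and 300.5 to 347 (median 332) in knockdown libraries, a log2 fold change of 1.19 ± 0.08 (SE; DESeq2 adjusted p = 1.7e-44). Its 5 gained peaks lay 152 to 199.6 kb from the nearest end of the gene, and the strongest change went from a median of 9.89 to 78.7. LYPD6B, a small protein with a Ly6 domain, had sums of 109 to 150.1 in control and 236 to 350.3 in knockdown libraries (log2 fold change 1.02 ± 0.09). The palmitoyltransferase gene ZDHHC14 was gained by 0.55 ± 0.07, the myosin light chain kinase gene MYLK by 0.47 ± 0.06 and the tensin gene TNS3 by 0.45 ± 0.07 (SE), each with no overlap of the groups.

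Peaks moved down together in SMAP2 (7 of 9), ANXA4 (5 of 7), THADA (5 of 9), KCNQ3 (4 of 7), ROBO2 (4 of 4) and LPAR1 (4 of 4). SMAP2 encodes a GTPase-activating protein for ARF and was among the most strongly bound genes, with sums of 1573 to 2073 (median 1665) in control and 1177 to 1441 (median 1284) in knockdown libraries. Its change was -0.46 ± 0.05 (SE; DESeq2 adjusted p = 5.4e-15), and its 7 lost peaks ranged from -0.32 to -0.79. ROBO2, a receptor of the axon guidance protein SLIT, spans 1743 kb and held 4 peaks 293 to 762 kb from its nearest end. Its sums went from 114 to 149.8 (median 123) to 42.9 to 64.7 (median 49.0). KCNQ3, a potassium channel gene, was lost by -1.15 ± 0.09, LPAR1, a receptor of lysophosphatidic acid, by -0.81 ± 0.10 and the annexin gene ANXA4 by -0.40 ± 0.09 (SE). The groups did not overlap in SMAP2, ROBO2, KCNQ3 or LPAR1 and overlapped in THADA (-0.31 ± 0.08) and narrowly in ANXA4.

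Strong changes in opposite directions stood side by side in TG, LRMDA and MSI2. In LRMDA 8 peaks were gained and 3 lost, with changes from -1.36 to 1.75, and its sum was gained by 0.41 ± 0.06. MSI2 encodes an RNA-binding protein of blood stem cells. It also had 8 gained and 3 lost peaks, from -1.50 to 1.11, with a sum of 0.12 ± 0.06 that did not pass (adjusted p = 0.0511). It passed after subtraction of the window median (0.23, adjusted p = 1.4e-04) and without control replicate 2 or 6 or knockdown replicate 2 (adjusted p = 0.0395, 0.0428 and 0.0342). TG, the thyroglobulin gene, had 4 gained and 4 lost peaks among 9, of which 5 also lie in the nested gene SLA, a SRC-like adaptor of blood cells.

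**Figure D4:**
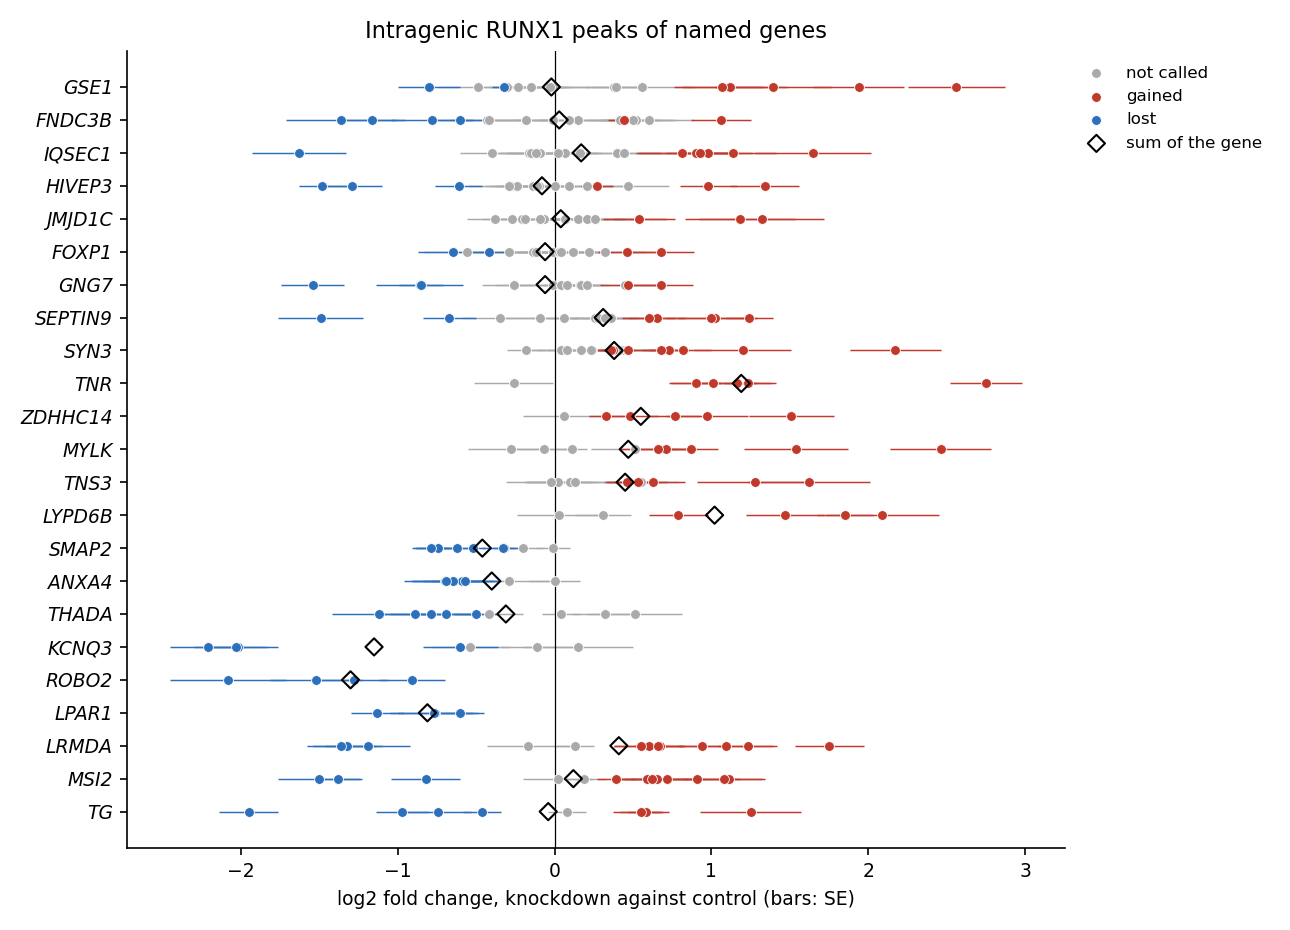
Log2 fold change of each intragenic peak (points, bars are SE) and of the sum over the gene (diamonds) in 23 named genes. In the 8 genes from GSE1 to SEPTIN9 the points lie on both sides of 0 and the diamonds between -0.08 and 0.31, the called points from SYN3 to LYPD6B lie to the right and those from SMAP2 to LPAR1 to the left.

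Single peaks with the clearest changes were taken from the 811 gained and 665 lost peaks whose mean normalised count reached 30 and whose groups were apart in both batches. The gained peak with the smallest adjusted p lay in TMEM255B, a membrane protein gene (chr13:113808141-113809938), and went from 86.7 to 117 (median 95.3) to 344 to 481 (median 369.9), a log2 fold change of 1.95 ± 0.11 (SE; DESeq2 adjusted p = 5.7e-66). A peak in SIN3B, a scaffold of histone deacetylase complexes, went from a median of 42.4 to 190.1, one in LMLN, a metallopeptidase gene, from 72.8 to 237, and one in CRHBP, the gene of a corticotropin-releasing hormone binding protein, from 50.7 to 154. DESI1 and CTIF held the other 2, with 2.48 ± 0.17 and 2.29 ± 0.17.

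Lost peaks of this kind included 2 in genes of immunoglobulin Fc receptors and their relatives. FCRL4, an Fc receptor-like gene, held a peak (chr1:157594989-157596051) with 156 to 179 (median 174) in control and 32.4 to 57.8 (median 45.9) in knockdown libraries (log2 fold change -1.97 ± 0.13; DESeq2 adjusted p = 7.6e-49). FCGR2B, the inhibitory Fc gamma receptor, held one that went from 165 to 266 (median 238) to 56.0 to 102 (median 67.2). FCGR2B has near-identical neighbours, so its reads could in part belong to them. PBK, a mitotic kinase gene, held a peak that fell from a median of 111 to 29.8, and FAM81A, AKAP13 and MLIP held the others, with changes between -2.05 and -2.84.

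Changes as large were found far from any gene end. More than 100 kb away, the clearest gained peaks were those in CTIF (113 kb), TNR (165 kb) and MAD1L1 (174 kb), a spindle checkpoint gene whose peak went from 29.8 to 51.6 (median 36.2) to 90.4 to 159 (median 115). The clearest lost peaks lay in ADGRB3 (121 kb), PREX1 (100.1 kb) and KCNQ3 (156 kb). ADGRB3, an adhesion receptor gene, held a peak with 33.8 to 72.7 (median 57.7) in control and 1.19 to 7.45 (median 6.16) in knockdown libraries, a change of -3.47 ± 0.30 (SE; DESeq2 adjusted p = 1.5e-28).

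**Figure D5:**
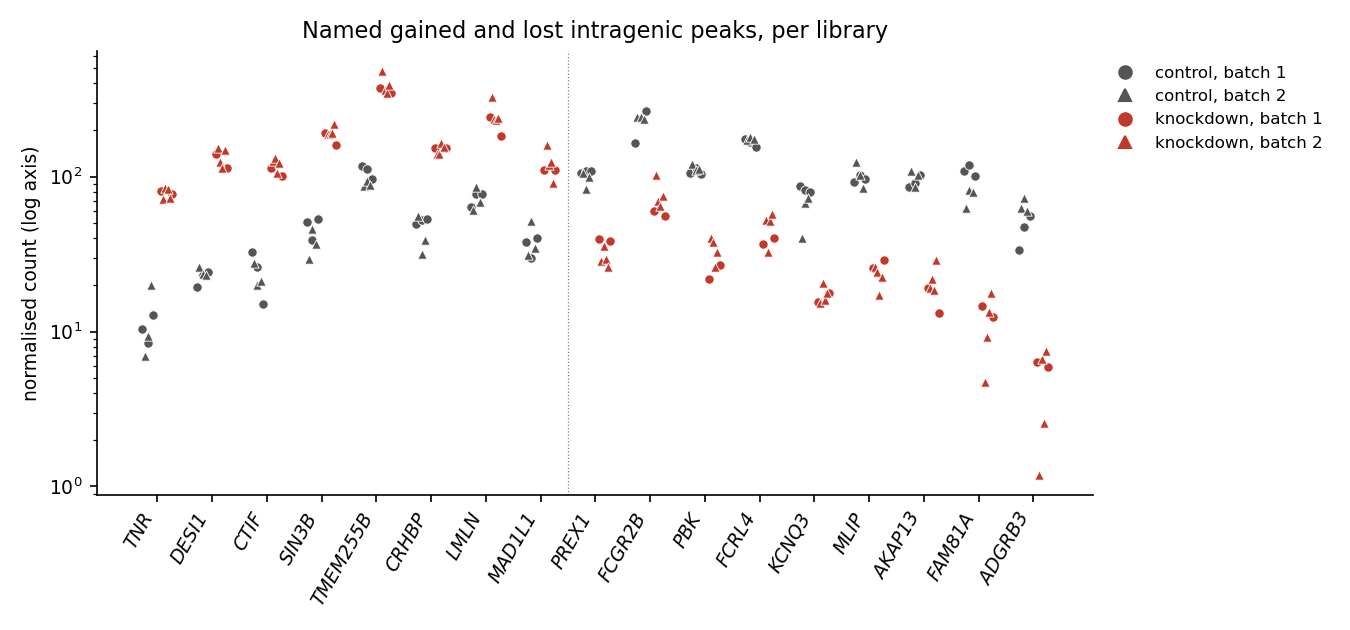
Normalised counts (log axis) of the 8 gained (left of the dotted line) and 9 lost (right) intragenic peaks named by the rule, in each control and knockdown library. The rule took only peaks with groups apart within each batch. The groups do not overlap at any of the 17 peaks, from 6.94 to 20 against 71.3 to 84.6 in TNR to 33.8 to 72.7 against 1.19 to 7.45 in ADGRB3.

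Gene lists were read against the shares of all intragenic peaks (25.9% gained, 20.8% lost). For sums per gene, the shares over all 5485 genes with a peak were 28.3% gained and 21.7% lost. In genes of myeloid receptors and signalling, 11 of 67 intragenic peaks were gained (16.4%) and 20 lost (29.9%), with a median log2 fold change of -0.14 against 0.07 over all intragenic peaks. By sums, 6 of its 32 genes with a peak were gained and 13 lost. CSF1R and CSF2RA, receptors of the monocyte growth factors M-CSF and GM-CSF, each held 1 peak, and both were lost. The CSF2RA peak went from 23.2 to 34.6 (median 31.9) to 7.13 to 13.2 (median 10.4). LYN, a SRC family kinase gene, had 3 of 5 peaks lost and a summed change of -0.63 ± 0.10 (DESeq2 adjusted p = 1.1e-08), which was -0.25 (adjusted p = 0.0310) relative to its 10 Mb window. INPP5D, the gene of the phosphatase SHIP1, had 3 lost and 1 gained of 6, with a sum of -0.20 ± 0.08 (adjusted p = 0.0211, up to 0.0935 when 1 library was left out). In contrast ADGRE1, an adhesion receptor of macrophages, had 2 gained and 1 lost peak and a sum of 0.51 ± 0.10, and CD86, a costimulatory ligand, a sum of 0.29 ± 0.10 (adjusted p = 0.00674, 0.0999 without knockdown replicate 1 and 0.0614 relative to its 10 Mb window).

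Of 124 peaks in genes of blood transcription factors 18 were gained (14.5%) and 18 lost (14.5%), and by sums 7 of 38 genes were gained and 7 lost. RUNX1 itself held 13, of which 3 were gained and 2 lost, with sums of 802 to 906 (median 838) in control and 829.9 to 863 (median 841) in knockdown libraries. One gained peak of RUNX1, 2.93 kb from its start, went from a median of 58.5 to 105. FOXO1, a forkhead factor, had 2 gained of 3 and a sum that went from 78.0 to 156 (median 109.5) to 189 to 240.4 (median 223), a change of 0.94 ± 0.10 (SE; DESeq2 adjusted p = 4.8e-18). RUNX2, a second RUNX gene, had a sum of 0.32 ± 0.10.

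The list of T lymphoid genes had 14 of 42 peaks gained (33.3%) and 7 lost (16.7%). By sums, 8 of its 22 genes with a peak were gained and 7 lost. The largest summed changes, named after their values were seen, were losses in LEF1, a factor of Wnt signalling (-2.31 ± 0.38), and the nuclear receptor gene RORA (-1.51 ± 0.19) and gains in the receptor genes NOTCH3 (1.40 ± 0.21) and IL2RB (1.37 ± 0.28). LEF1, NOTCH3 and IL2RB held 1 peak each and RORA 2. The LEF1 peak had few reads, 12.1 to 24.7 in control and 0.913 to 7.45 in knockdown libraries. Of the genes with most calls, PRKCQ, protein kinase C theta, had 3 gained of 6 and a sum of 0.32 ± 0.08 (0.16, adjusted p = 0.0858, relative to its 10 Mb window), LCP2, the adaptor SLP-76, 2 gained of 5 and a sum of 0.21 ± 0.06, and CD6, a lymphocyte receptor gene, 2 gained of 2, from 15.6 to 39.9 (median 26.9) to 40.8 to 66.2 (median 49.3). TOX2 had 1 gained and 1 lost. In autophagy genes, a list that includes genes the study names, 18 of 75 peaks were gained (24.0%) and 14 lost (18.7%), and by sums 5 of 25 genes were gained and 5 lost. The largest summed changes, named after their values were seen, were a gain in PLEKHA5 (1.76 ± 0.44) and losses in the autophagy receptor gene CALCOCO2 (-1.09 ± 0.12) and in ATG9A (-1.06 ± 0.19). PLEKHA5 and ATG9A held 1 peak each. That of PLEKHA5 had few reads, 0.931 to 9.48 in control and 9.32 to 19.1 in knockdown libraries, so the groups overlapped. Of other genes the study names, VMP1 had 1 gained and 1 lost of 6 and a sum of 0.04 ± 0.07. RAB37 had 0.20 ± 0.09 (DESeq2 adjusted p = 0.0562) and LAMP2 -0.02 ± 0.10. ATG7 was called gained (0.49 ± 0.16) but did not pass relative to its 10 Mb window. Of the genes with most calls, SNX30, a sorting nexin gene, had a sum of -0.36 ± 0.10 (-0.17, adjusted p = 0.140, relative to its 10 Mb window, with -0.13 in batch 1 and -0.52 in batch 2), WIPI2, which acts in autophagosome formation, -0.23 ± 0.10 (adjusted p = 0.0397, up to 0.125 when 1 library was left out) and RPTOR, a subunit of the mTORC1 kinase complex, 0.11 ± 0.07, which did not pass.

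In genes of stem cells and leukemia, 22 of 120 peaks were gained (18.3%) and 18 lost (15.0%), and by sums 10 of 39 genes were gained and 8 lost. TET1, a DNA demethylase gene, had 3 gained of 4 and a sum of 0.51 ± 0.09 (0.33 relative to its 10 Mb window), and HDAC9 a sum of 0.32 ± 0.09. SETBP1, whose product binds the oncoprotein SET, had 4 lost and 2 gained of 8, with changes from -2.13 to 1.62.

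Precursors of 22 microRNAs lay wholly inside 21 intragenic peaks, of which 6 were gained, 3 lost and 12 not called. This is near the shares over all intragenic peaks (25.9% gained, 20.8% lost). The peak in CTDSPL that holds MIR26A1 had 3.16 to 10.4 (median 3.60) in control and 19.2 to 37.0 (median 28.5) in knockdown libraries, a log2 fold change of 2.39 ± 0.35 (SE; DESeq2 adjusted p = 3.1e-10). In NSMF, the peak with MIR7114 went from a median of 19.3 to 42.1 and that with MIR1976 in RPS6KA1 from 17.5 to 37.0, both without overlap. The peak with MIR4513 in CSK fell from 209.9 to 267 (median 249.6) to 171 to 201 (median 186). MicroRNA levels were not measured.

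Neighbouring called peaks of 1 gene shared a direction in most pairs. Of 1091 pairs less than 100 kb apart, 696 (63.8%, 95% Wilson interval 60.9% to 66.6%, which covers counting error only) moved in the same direction. The share was 67.3% at under 5 kb, 65.7% at 5 to 20 kb, 62.3% at 20 to 50 kb and 56.8% at 50 to 100 kb. Pairs of intergenic peaks had 64.2% (1088 pairs) and pairs in different genes 59.5% (148 pairs, 51.4% to 67.0%), so the intervals overlapped. After subtraction of the 10 Mb window medians the 3 shares were 62.6%, 63.3% and 57.1%.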

How the data were processed

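THP-1 cells with a scramble or a PU.1 shRNA were compared in 12 RUNX1 ChIP-seq libraries. According to the methods, reads were aligned by the authors with bowtie2 and freed of duplicates, peaks were called with macs2 per condition and batch, kept where reproducible between batches and merged, and reads were counted with featureCounts (tool versions not given in the sources used here). The deposited values are raw counts per peak, with the peak width in bp as other information. The methods name the mouse build GRCm38 for these human cells and the submitters' processing notes list GRCm38 and GRCh38. Coordinates were read as GRCh38, since peaks gathered at gene ends of that build. Genes, start windows and microRNAs came from RefSeq (GRCh38.p14), without exons. Intron or exon is therefore not given, the strand came from the start windows, which were not used here for chromosome 8 (583 intragenic peaks), and no genome was used here, so only start windows are printed.

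All 26642 peaks were fitted with DESeq2 1.42.0 (R 4.3.3), with median-of-ratios size factors, batch and group, and Benjamini-Hochberg adjustment over all peaks. Size factors assume that most peaks do not shift together. Gene sums used the same size factors. Ratios of reads were compared by two-sided exact permutation within batch (350 arrangements, smallest p 0.002857) and adjusted within each family of classes. In a single batch this exact permutation cannot go below p = 0.10 (batch 1) or 0.0286 (batch 2), so the values of single batches have no test. A peak in more than 1 gene took the length of the shortest. The alternatives were edgeR 4.0.16, other size factors, thresholds, filters and memberships, models with no batch term or with a replicate block, each library left out, and changes relative to 10 Mb windows. The fits were tested on simulated counts.

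Named genes were the 10 with most intragenic peaks, the 5 densest with at least 5, the 6 and 6 with most peaks called in one direction (at least 4 peaks), the 4 with most in both, and up to 4 per gene list with most calls. Named peaks reached a mean normalised count of 30, had groups apart in each batch, and were the 6 gained and 6 lost with the smallest adjusted p and the 3 and 3 over 100 kb from an end. Some genes and 1 gene list that these rules name are not reported here. CSF1R, CSF2RA, the microRNA peaks and the start-window peaks were chosen after their values were seen. The intragenic class, the gene lists and the rules were chosen with earlier results of these data known.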

Additional observations from a re-analysis of the deposited data

Results flagged for a closer look

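In groups of 6 libraries, 17 of 226 groups of values had 1 library far from the others, by a gap over Dixon's 95% critical value, where chance alone gives about 11.3 (1 in 20). Control replicate 1 was that library in 10 of the 17. Its log2 ratio was -1.03 for intragenic reads against all other peaks (other control libraries -0.886 to -0.831), -0.744 for gene ends (others -1.13 to -1.07), -1.24 for intergenic peaks (others -1.05 to -1.04) and -0.189 for intragenic reads against gene ends (others 0.121 to 0.201). It was -2.68 for genes of 25 to 50 kb (others -2.71 to -2.70), -3.32 for peaks 1 to 5 kb from the start (others -3.41 to -3.38), -3.59 for peaks 5 to 10 kb from the other end (others -3.65 to -3.63) and -2.95 for peaks with a start window against those without (others -3.34 to -3.26). Its normalised count was 165 at the peak in FCGR2B (others 235 to 266) and 58.5 at the start-window peak in SMAD3 (others 37.9 to 45.1).

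Among knockdown libraries, replicate 3 had -3.22 for the first 10% of the gene and 481 at the peak in TMEM255B (others 344 to 391), replicate 2 had -2.11 for 20 to 40% of the gene, and replicate 6 had a sum of 676 in JMJD1C (others 569 to 606) and 79.2 at the start-window peak in SEPTIN9 (others 101 to 112). Control replicate 4 had -2.50 for 60 to 80% of the gene (others at -2.47) and control replicate 5 had 83.2 at the peak in PREX1 (others 100.1 to 109). The reason why control replicate 1 differs was not tested.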

How the results depend on the processing

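Under each other setting of the test over both batches, 2378 to 4900 of the 4900 called intragenic peaks were also called, each in the same direction. The 4900 calls (2719 gained, 2181 lost) became 2545 (1416 and 1129) among the 6608 peaks with at least 10 reads in every library, where 2607 of the calls could be tested, and 2131 (1115 and 1016) at a fold change over 2. Without 1 library they ranged from 4320 to 4708. In batch 1, edgeR called 3328 against 1503, and leaving out 1 library gave 118 to 976. In batch 2 the count was 1969 to 2699 without 1 library against 3084, lowest without control replicate 5 or 6. The gene length difference ranged from -0.0385 to -0.0288 and the start-window difference from -0.180 to -0.121 without 1 library. The distance difference of -0.0287 passed the threshold with mean log2 counts (-0.0247), at 2 kb from every end (-0.0326), with at least 10 reads in every library (-0.0397) and without start-window peaks (-0.0374) and without control replicate 1 (-0.0341, adjusted p = 0.0417, exact permutation). Without 1 library it ranged from -0.0341 to -0.0240, with adjusted p up to 0.163 (exact permutation).

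Control and knockdown share replicate numbers, but the number pairs nothing: deviations of same-numbered libraries correlated by -0.0643 to 0.0144, and replicate 3 stands in different batches. With the replicate number as a block, DESeq2 called 3315 intragenic peaks (1784 gained, 1531 lost) and 1869 genes (1038 gained, 831 lost), and edgeR with the block 5067 peaks (2883 gained, 2184 lost).

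Values that changed sign did not pass the threshold after the change, except where given. Reads 5 to 10 kb from an end had -0.0265 with mean log2 counts (adjusted p = 0.0200, exact permutation), -2.9e-04 at 2 kb from every end, -7.4e-05 in batch 2 and -0.00340 to 0.00499 without 1 library. Those 20 to 50 kb away had -7.4e-04 at 2 kb, -0.00806 with at least 10 reads, -0.00437 in batch 1 and -0.00144 to 0.00206 without 1 library, and those 1 to 5 kb away had -3.3e-04 with at least 10 reads and -0.00278 to 0.00868 without 1 library. Genes of 100 to 200 kb had -6.2e-04 with at least 10 reads. Relative to 10 Mb windows the sums changed sign in DENND10 (-0.05), FNDC3B (-0.0157), HIVEP3 (0.06), IQSEC1 (-0.00145), JMJD1C (-0.14), PLEC (0.13) and TG (0.06). Of these, JMJD1C and PLEC passed the threshold after the subtraction, and DENND10 and IQSEC1 were called gained before it. RUNX1 had -0.0100 with the block and -0.00405 without batch, and without 1 library GSE1 ranged from -0.0374 to 0.00252 and RUNX1 from -0.0122 to 0.0241. The named single peaks kept their calls under all 503 combinations of peak and setting. They were chosen for the smallest adjusted p, so this says nothing about other peaks. Weak changes of peaks with few reads were beyond this depth.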
